A study of Mus musculus with 8 samples.

Results

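Otx2, Six3, Hesx1, Rax, Lhx2, En1, En2, Pax2, Gbx2 and Egr2 are transcription factors that divide the neural tube into forebrain, midbrain and hindbrain. They were chosen by name from the gene list of single-cell RNA sequencing data on chimaeric mouse embryos, where these 10 genes stand among 55422 features. Embryonic stem (ES) cells that lack Tet1, Tet2 and Tet3 (Tet-TKO) were injected into blastocysts, the embryos were grown in CD1 recipients, and the descendants of the ES cells were sorted from the wild-type host cells at embryonic day (E) 7.5 and E8.5. TET enzymes oxidise methylated cytosine, and the design asks how cells without them form tissues beside wild-type cells of the same embryos.

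The Tet-TKO cells came from 1 ES line of mixed C57BL/6J-129Sv background that carried a CAG-driven H2B-tdTomato reporter, and the WT host cells were the tdTomato-negative C57BL/6J cells of pooled chimaeras. Both groups therefore shared embryo age at collection and grew in chimaeras, while genotype, genetic background and the reporter cannot be told apart. From cell type proportions the study inferred a slight developmental delay for Tet-TKO at E8.5. The part of this delay in the values below was not tested. The labels do not say which Tet-TKO and WT host libraries came from the same embryos. E8.5 is covered by 6 libraries (Tet-TKO 1 to 4, WT host 1 and 2) and E7.5 by 1 library of each genotype. Nothing states that libraries came from separate pools of embryos, so p-values measure the spread between libraries, which may be technical.

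At E8.5 the 6 libraries held 1010 to 9546 cells and 65601218 to 136982886 UMIs in all (unique molecular identifiers, each standing for 1 captured RNA molecule). Tet-TKO libraries 3 and 4 held fewer and deeper cells, with medians of 40400.5 and 68704 UMIs against 12178 to 18770 in the other 4 libraries. Their summed neural counts stood apart. Chi-square divided by its degrees of freedom came to 2.69 for libraries 1 with 2 and 5.97 for 3 with 4 of Tet-TKO, but to 34.8 to 49.7 across these pairs. Any pair among the 8 libraries of both stages shared at most 28 cell barcodes, and at most 0.434% of those of the smaller library. tdTomato was counted in 60.8 to 87.3% of the Tet-TKO cells and in 0.569 and 0.841% of the WT host cells. Tet1, Tet2 and Tet3 were still counted in Tet-TKO cells at E8.5, at levels given in CPM (the UMIs of a gene relative to all UMIs of a group of cells in a library, on the usual CPM scale). Tet1 stood at 9.93, 10.97, 20.03 and 20.9 against 22.6 and 20.4 CPM, Tet2 at 5.99, 5.55, 10.5 and 9.72 against 4.67 and 4.63 CPM, and Tet3 at 23.5, 22.5, 37.5 and 36.4 against 23.1 and 23.2 CPM. Tet2 was thus above both WT host libraries in every Tet-TKO library, and Tet3 in 3 of 4. The 3′ tags need not lie in the deleted part, so these levels check nothing about the knockout.

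The patterning factors act in a sequence along the head-to-tail axis. Otx2 marks the future forebrain and midbrain, and within this territory Six3, Hesx1, Rax and Lhx2 mark the anterior forebrain and the eye field. Pax2, En1 and En2 mark the midbrain and the boundary with the hindbrain, an organising centre that secretes FGF8 and WNT1. Gbx2 lies behind this boundary, where it and Otx2 repress each other, and Egr2 (Krox20) marks rhombomeres, the segments of the hindbrain.

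The promoters of Six3, Hesx1 and Lhx2 are shown because these forebrain factors had lower levels in all Tet-TKO neural cells and because TET enzymes act on cytosines next to guanines. These are the 250 bases before the RefSeq start that lies nearest to the annotated principal start, 5′ to 3′ on the plus strand of GRCm38.p6, with each CG in capitals. All 3 windows lie inside the longer gene spans of the GENCODE M21 annotation. No methylation is part of the files analysed here, so the letters are a description of the genome and not a result of the comparison. In the erythroid and other cells it profiled for methylation, the study placed TET-dependent demethylation at distal regulatory regions. It reported negligible effects at promoters, which had low methylation in both genotypes.
Six3, chr17:85620584-85620833: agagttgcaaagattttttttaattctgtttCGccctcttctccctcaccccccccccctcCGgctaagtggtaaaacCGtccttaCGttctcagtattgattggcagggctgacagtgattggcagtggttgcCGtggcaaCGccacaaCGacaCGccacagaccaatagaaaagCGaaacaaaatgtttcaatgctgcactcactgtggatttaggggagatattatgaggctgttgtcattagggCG
Hesx1, chr14:27000112-27000361: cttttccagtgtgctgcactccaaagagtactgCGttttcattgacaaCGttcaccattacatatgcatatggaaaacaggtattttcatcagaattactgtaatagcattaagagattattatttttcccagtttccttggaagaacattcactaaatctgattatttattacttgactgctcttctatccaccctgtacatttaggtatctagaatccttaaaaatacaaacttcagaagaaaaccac
Lhx2, chr2:38351058-38351307: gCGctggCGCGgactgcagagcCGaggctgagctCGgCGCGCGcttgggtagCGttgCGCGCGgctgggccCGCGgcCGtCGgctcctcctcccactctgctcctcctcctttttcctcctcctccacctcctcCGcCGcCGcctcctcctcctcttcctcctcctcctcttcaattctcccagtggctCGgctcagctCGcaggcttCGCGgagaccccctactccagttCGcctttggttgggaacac
The Hesx1 window holds 2 CG, the Six3 window 10 and the Lhx2 window 24. Across 32851 RefSeq windows of this length from 27025 genes the median was 6 CG, with quartiles of 2 and 16, and 92.1% held at least 1. The 3 windows thus lay at the 29.0, 64.4 and 89.3 percentiles. TAATTA, a homeodomain core motif that reads alike on both strands, was in none of the 3 and in 4.84% of all windows. Of the 10 genes, 8 had an entry in this table.

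Cells were clustered without the 10 genes, and clusters were named from other markers. The 8 neural markers (Sox1, Sox2, Sox3, Sox21, Zic1, Fabp7, Hes3 and Lfng) summed to 495 to 581 CPM in the Tet-TKO neural cells and to 639 and 590 CPM in the WT host neural cells. Libraries 1 to 4 of Tet-TKO held 482, 1193, 351 and 165 neural cells, and the WT host libraries 837 and 1437. Erythroid markers also differed between these same neural cells: 5 or 6 of the 7 were counted in a Tet-TKO library against 7 of 7 in each WT host library, with Slc4a1 at 0 in all Tet-TKO libraries. Their summed level was 4.62 to 24.4 CPM in Tet-TKO and 379.6 and 1114 CPM in WT host neural cells. The part of this blood RNA in the values below was not tested.

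Forebrain factors were lower when all neural cells of a library were summed. Six3, Hesx1, Rax and Lhx2 passed the test, with log2 fold changes of -1.57 to -2.35, while Otx2 was lower in each Tet-TKO library without passing it, and none of the 5 caudal factors passed. So 4 of the 10 genes were called lower and 0 higher, where 0.436% of the 14006 genes tested were called lower and 0.321% higher. At an unadjusted p under 0.05 were 6 of the 10 (these 4, Otx2 and Egr2) and 15.8% of all genes. A call needed an adjusted p under 0.01 in the edgeR quasi-likelihood test on summed counts (Benjamini-Hochberg over all genes tested) and an absolute log2 fold change, Tet-TKO minus WT host, of at least 1. The median log2 fold change was -0.66 over the 10 genes and 0.01 over all genes tested. In summed cells, fewer cells of a region and less RNA per cell cannot be told apart. Forebrain-like cells, drawn by markers below, were 7.26 to 13.7% of the neural cells in Tet-TKO libraries and 29.5 and 25.4% in WT host.

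**Figure D1:**
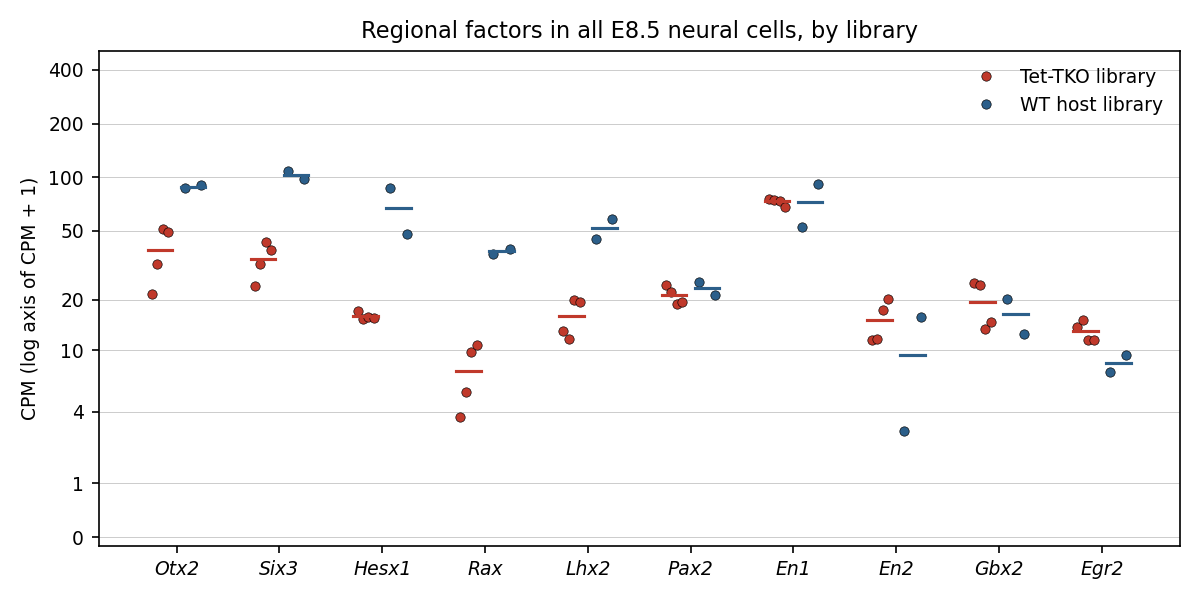
Levels of the 10 factors in all E8.5 neural cells, as CPM on a log axis of CPM + 1. Each point is 1 library (red, 4 Tet-TKO; blue, 2 WT host) and each bar a group mean; for Six3, Hesx1, Rax, Lhx2 and Otx2 every Tet-TKO point lies below both WT host points, and for Egr2 every one lies above. The smallest exact two-sided permutation p that 4 against 2 libraries allow is 0.133. The share of all genes that separate in this way was not counted.

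Six3, a homeobox gene needed for the anterior forebrain (chr17:85613608-85629302, plus strand, mm10), stood at 24.0, 32.4, 43.0 and 38.8 CPM in Tet-TKO libraries 1 to 4 and at 108.5 and 98.4 CPM in the WT host libraries. The groups did not overlap, and the log2 fold change was -1.57 (SE 0.17, edgeR adjusted p = 0.0039). Hesx1, a repressor required for forebrain and pituitary (chr14:26994416-27002329, plus strand), stood at 17.3, 15.5, 15.8 and 15.6 CPM in Tet-TKO. Its WT host levels of 87.2 and 47.7 CPM were both higher but differed from each other more than the Tet-TKO libraries did, and the log2 fold change was -2.06 (SE 0.23, edgeR adjusted p = 0.0043).

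Rax, which specifies the eye field (chr18:65928277-65939787, minus strand), had the largest difference of the 10 genes when all libraries were kept. It stood at 3.68, 5.48, 9.75 and 10.8 CPM in Tet-TKO and 36.7 and 39.5 CPM in WT host, a log2 fold change of -2.35 (SE 0.30, edgeR adjusted p = 0.0073). The deeper Tet-TKO libraries 3 and 4 lay above libraries 1 and 2 and still far below the WT host libraries. Lhx2, a LIM homeobox gene of the eye field and the dorsal forebrain (chr2:38339281-38369733, plus strand), stood at 13.2, 11.7, 19.9 and 19.5 CPM against 44.7 and 58.3 CPM, a log2 fold change of -1.67 (SE 0.19, edgeR adjusted p = 0.0052).

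Otx2, a homeobox gene needed for forebrain and midbrain (chr14:48657677-48673819, minus strand), stood at 21.6, 32.2, 51.1 and 49.5 CPM in Tet-TKO and at 86.7 and 90.3 CPM in WT host. No library overlapped, but Tet-TKO libraries 1 and 2 spread far from 3 and 4, and the log2 fold change of -1.20 (SE 0.26) did not pass (edgeR adjusted p = 0.053). It passed under DESeq2 (adjusted p = 0.00076, range over all alternatives 3.9e-13 to 0.35). The low end of this range came from edgeR without a filter on low counts and is not read as support.

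These calls rest on few libraries. With like libraries summed (Tet-TKO 1 with 2, 3 with 4) all 4 kept their direction and none was called, at edgeR adjusted p of 0.0135 to 0.0335. Leaving out WT host library 1 also left 0 calls, leaving out Tet-TKO library 2 or 3 or WT host library 2 left 1, and none of these turned a direction. The call of Hesx1 was also lost when the cells were clustered with the members (-1.59), at clustering resolution 1 (-1.64) and without correction between libraries (-1.65), at edgeR adjusted p of 0.081, 0.061 and 0.082. Rax lost its call at resolution 1 too (-2.23, edgeR adjusted p = 0.0106).

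At equal depth, the share of neural cells with a UMI was lower in each Tet-TKO library for the same 5 factors. How many of all genes did so was not counted. With each cell thinned to 5000 UMIs, which left out 5 to 87 shallower cells a library, Six3 was counted in 6.84, 7.02, 8.67 and 8.28% of the Tet-TKO neural cells and in 21.7 and 18.9% of the WT host cells. Without thinning its shares were 9.81 to 17.7% and 24.9 to 27.6%, at median depths of 11620 to 72000 and 12950 to 14440 UMIs. Rax was counted in 1.77 to 2.60% of thinned Tet-TKO cells against 10.7 and 12.6% (unthinned 3.27 to 8.55% against 16.98 and 18.16%). Lhx2 was counted in 5.58 to 8.09% against 15.2 and 15.9% (unthinned 9.56 to 27.3% against 22.6 and 23.4%, where the deeper Tet-TKO libraries overlapped the WT host). Otx2 was counted in 9.93 to 18.5% against 25.5 and 27.2% (unthinned 15.6 to 29.1% against 38.8 and 41.2%).

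Erythroid-like cells, which should lack these factors, give the background at the same thinned depth. Rax was counted in at most 0.226% of them in any library, Six3 in at most 1.21%, Lhx2 in at most 1.82% and Otx2 in at most 2.94%, the last in 34 cells of Tet-TKO library 3. The neural shares of these 4 genes were above these values in every library. Unthinned erythroid-like cells had median depths of 16190 to 63440 UMIs. Hesx1 was an exception, with 3.03 and 4.89% of WT host erythroid-like cells against at most 0.606% in Tet-TKO, so this class is no neutral background for it. In thinned neural cells Hesx1 was counted in 3.06 to 5.08% of Tet-TKO and 11.1 and 21.1% of WT host cells (unthinned 5.28 to 11.4% against 17.3 and 28.0%).

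The neural cells were split into regions by markers outside the 10 genes, such as Fezf1, Emx2 and Lhx5 for forebrain. The forebrain-like cells numbered 35, 108, 48 and 21 in the Tet-TKO libraries and 247 and 365 in the WT host libraries. They held most UMIs of 3 anterior factors: 80.7 to 100% of the neural UMIs of Rax, 78.2 to 97.3% of Six3 and 76.7 to 97.2% of Hesx1 over the 6 libraries. For Lhx2 they held 42.3 to 91.9% and for Otx2 35.2 to 69.6%. By library, the Six3 shares were 78.2, 83.3, 93.3 and 97.3% in Tet-TKO against 97.1 and 95.2% in WT host. Those of Otx2 were 35.2, 49.6, 43.6 and 53.7% against 69.6 and 57.4%, without overlap. The 8 forebrain markers that helped to draw this group summed to 128 to 222 CPM in its Tet-TKO cells and to 255 and 295 CPM in its WT host cells. Erythroid markers summed to 4.43 to 23.9 CPM in the Tet-TKO and to 399.0 and 1174 CPM in the WT host forebrain-like cells, and their part in the values was not tested. Since the forebrain markers differ too, the numbers of cells are given as the depth of each sum, and their shares above as a description and not as a comparison.

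Within forebrain-like cells the factors parted. Rax was called lower, 1 of the 7 members tested, where 0.39% of 9491 genes were called lower and 0.39% higher. At an unadjusted p under 0.05 were 5 of the 7 members and 15.2% of all genes tested. En1 was among these 5 with a difference in the other direction, higher in Tet-TKO. It passed the filter on low counts through 3 Tet-TKO and 0 WT host libraries. Six3 and Otx2 showed small differences that did not pass, and Hesx1 and Lhx2 larger ones that did not pass either. The median log2 fold change of the 7 members was -0.27, against 0.02 over all genes tested.

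Rax stood at 42.5, 52.4, 71.4 and 76.5 CPM in Tet-TKO and at 121.5 and 134.1 CPM in WT host forebrain-like cells. The groups did not overlap, and the log2 fold change was -1.02 (SE 0.17, edgeR adjusted p = 0.0077). This lies close to the fold a call needs. At clustering resolution 1 the call was lost on the fold (-0.90, edgeR adjusted p = 0.0056). On the adjusted p it was lost with like libraries summed (-1.025, edgeR adjusted p = 0.043) and among cells with matching tdTomato (-1.06, edgeR adjusted p = 0.012). Leaving out any library other than Tet-TKO library 4 also lost it (-0.94 to -1.11 over all leave-outs). The sign was always the same. Without correction between libraries the forebrain-like cells numbered only 1, 2, 2 and 1 in Tet-TKO against 209 and 386 in WT host, so no comparison could be made there. In thinned cells, Rax was counted in at most 26.7% of Tet-TKO and 39.3 and 40.0% of WT host forebrain-like cells, against 28.7 to 66.7% and 59.1 and 62.2% without thinning. The forebrain-like cells formed 2 clusters, and Rax was lower in each: 36.0 to 91.4 CPM against 129.5 and 131.4 CPM in the larger, and 16.4 to 81.9 CPM against 109.4 and 138.6 CPM in the other, where Tet-TKO library 4 had 7 cells.

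Lhx2 stood at 80.0, 68.9, 114.3 and 114.5 CPM against 135.7 and 189.5 CPM in forebrain-like cells, with no overlap and a log2 fold change of -0.75 (edgeR adjusted p = 0.074). Six3 stood at 268.8, 287.4, 297.5 and 268.8 CPM against 356.6 and 331.0 CPM. Its Tet-TKO libraries were also all below the WT host, but by little, with a log2 fold change of -0.27 (edgeR adjusted p = 0.33), and it was counted in 57.0 to 66.7% of thinned Tet-TKO cells and 66.9 and 68.0% of WT host cells (unthinned 71.4 to 100% and 85.8 and 87.4%). Hesx1 stood at 190.5, 151.9, 113.3 and 108.2 CPM against 278.1 and 159.6 CPM, so that Tet-TKO library 1 lay above WT host library 2 (-0.65, edgeR adjusted p = 0.26). Otx2 stood at 108.9, 169.9, 165.4 and 189.1 CPM against 204.1 and 183.4 CPM, and the groups overlapped (-0.25, edgeR adjusted p = 0.51).

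To set the libraries side by side with the same regional make-up, each library's regional levels were averaged with 1 set of weights, the mean share of each region in the neural UMIs of the 6 libraries (from 10.3% for spinal cord-like to 22.4% for midbrain and boundary-like cells, with 17.9% for forebrain-like cells, over 6 groups that leave out the epiblast-like neural cluster). The log2 ratio of group means was then -0.28 for Six3, -0.36 for Otx2, -0.64 for Lhx2, -0.69 for Hesx1 and -1.11 for Rax. For Six3, Lhx2 and Rax every Tet-TKO library stayed below both WT host libraries, at an exact two-sided permutation p of 0.133, the smallest that 4 against 2 libraries allow. Egr2 had the same p in the other direction, at 10.8 to 14.8 CPM in Tet-TKO and 9.1 and 9.9 CPM in WT host (log2 ratio 0.42). How many of all genes separate in this way at the same make-up was not counted. Most neural UMIs of Six3, Hesx1 and Rax lay in forebrain-like cells, so for these genes the ratios largely restate the forebrain-like values. These values depend on how the regions were drawn.

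**Figure D2:**
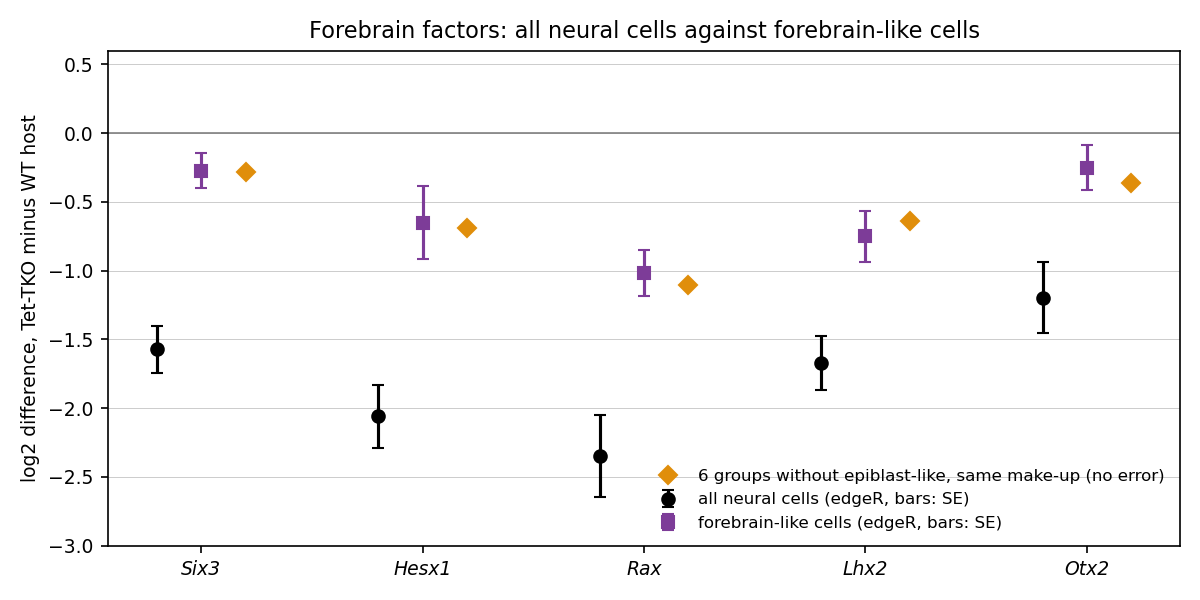
Log2 difference, Tet-TKO minus WT host, of the 5 anterior factors in all neural cells (circles, bars SE), in forebrain-like cells (squares, bars SE) and in the 6 neural groups other than the epiblast-like cluster, averaged with the same make-up in each library (diamonds, no error). Six3 moves from -1.57 in all neural cells to -0.27 in forebrain-like cells, and Rax from -2.35 to -1.02.

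Of the caudal factors, En2, Gbx2 and Egr2 were at most 5.69 CPM in forebrain-like cells of any library. Pax2 was at 20.9 to 28.9 CPM in Tet-TKO and at 24.3 and 23.1 CPM in WT host, with overlap. En1, an engrailed homeobox gene of the midbrain (chr1:120602418-120607992, plus strand), stood there at 23.8, 21.7, 14.5 and 0.63 CPM in Tet-TKO and at 0.28 and 2.44 CPM in WT host, from 14, 29, 30 and 1 UMIs against 1 and 13. Tet-TKO library 4 lay within the WT host range and the other 3 above it. En1 passed the filter on low counts, a minimum of 5.47 CPM here, through 3 Tet-TKO and 0 WT host libraries, so its fold change is given as a description. It was 3.16 on the log2 scale (SE 0.87, edgeR adjusted p = 0.10, not called) and 3.63 without Tet-TKO library 4, which also fell out at a minimum of 30 cells (edgeR adjusted p = 0.0046, range over all alternatives 3.6e-14 to 0.59). The low end of this range came from a fit with the library number as a block, which leaves 1 residual degree of freedom. It is not read as support. In Tet-TKO the En1 level was higher in the smaller of the forebrain clusters, at 42.5, 32.2, 26.1 and 2.11 CPM against 3.55, 5.68, 0 and 0 CPM in the larger. WT host had 0.62 and 2.24 CPM in the smaller and 0 and 2.64 CPM in the larger. Markers of the midbrain and its boundary (Pax5, Wnt1, Fgf8 and 4 others) summed to 53.9 to 99.3 CPM in Tet-TKO forebrain-like cells and to 27.1 and 43.6 CPM in WT host. Their part in the values of En1, Rax and the other factors in these cells was not tested.

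For En1, the effect in midbrain and boundary-like cells minus that in forebrain-like cells was -3.04 (SE 0.59, edgeR interaction test, adjusted p = 0.018), with 23 of 10650 genes at this threshold of 0.05. It rests on the same few UMIs of forebrain-like cells. There En1 reached the mean of 10 CPM that this test needed in Tet-TKO only, so the difference is also given as a description. The difference passed with all libraries and without Tet-TKO library 4, and it was lost without any of the other 5 (lowest -4.97, highest -2.60) and under DESeq2 (-3.44, adjusted p of 1). For Otx2 the same difference was -0.29 (adjusted p = 0.83), for Hesx1 -0.74 (0.76), for Six3 -0.03 and for Pax2 0.13, none of which passed.

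**Figure D3:**
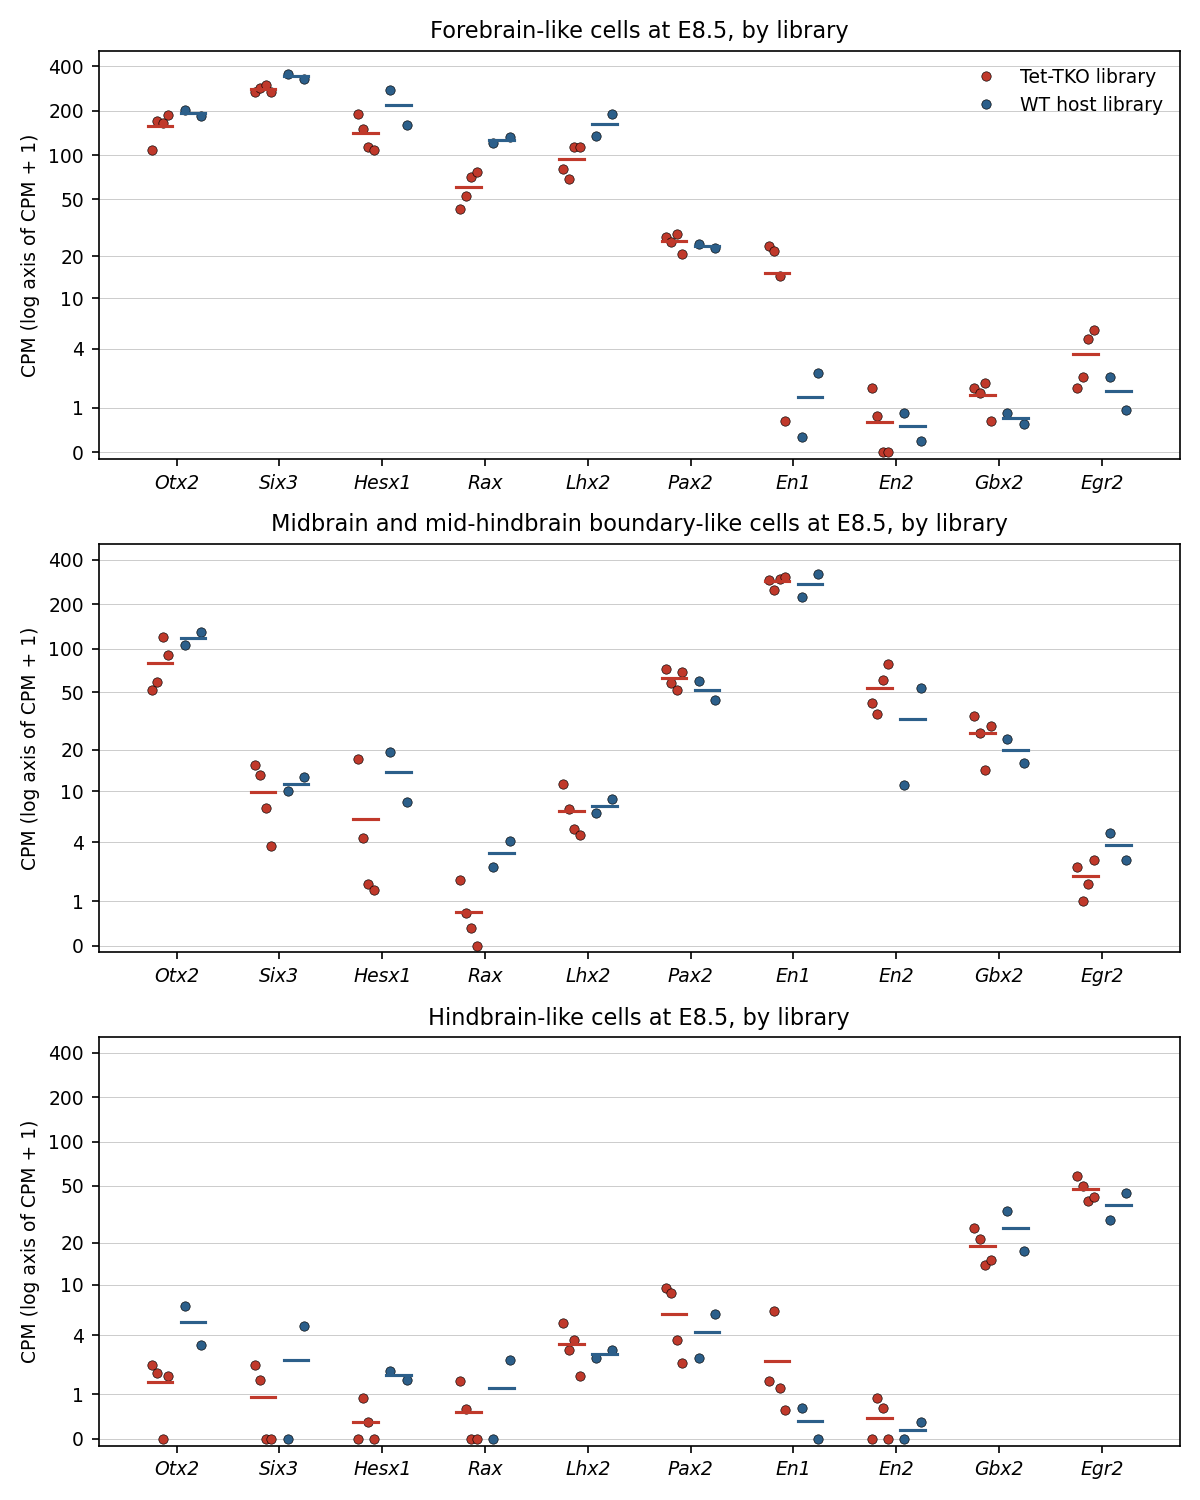
Levels of the 10 factors in forebrain-like (top), midbrain and mid-hindbrain boundary-like (middle) and hindbrain-like (bottom) cells at E8.5, as CPM on a log axis of CPM + 1, with 1 point per library and bars for group means. Six3, Hesx1, Rax and Lhx2 are high in the top panel, En1 in the middle panel and Egr2 in the bottom panel, for both genotypes.

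In midbrain and mid-hindbrain boundary-like cells (100, 251, 69 and 32 against 175 and 347 cells) none of the 8 members tested was called, where 0.533% of 10310 genes were. DESeq2 also called 0 members, here and in each neural group below. At an unadjusted p under 0.05 was 1 of the 8, Otx2, where 11.5% of all genes tested were. The 7 midbrain and boundary markers that helped to draw this group summed to 129 to 166 CPM in Tet-TKO and to 195 and 258 CPM in WT host, and the 8 forebrain markers to 21.2 to 29.9 CPM and to 41.6 and 46.0 CPM, both with no overlap. Their part in the members' values was not tested. En1 was the highest of the 10 there, at 290, 250, 296 and 307 CPM in Tet-TKO and 223 and 322 CPM in WT host (0.07, adjusted p from 0.74 to 0.99 over all alternatives). En2, the second engrailed gene (chr5:28165694-28172166, plus strand), stood at 42.1, 35.5, 60.7 and 78.1 CPM against 11.2 and 53.9 CPM, so the WT host libraries differed from each other by more than the group means did (0.66). Pax2, a paired box gene of the boundary (chr19:44756045-44837871, plus strand), stood at 73.0, 58.0, 52.0 and 69.0 CPM against 59.96 and 44.7 CPM (0.28).

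Otx2 in the same cells stood at 51.6, 58.7, 119 and 90.1 CPM against 106 and 129 CPM. Tet-TKO libraries 1 and 2 were the lowest and library 3 lay within the WT host range, with a log2 fold change of -0.56 (edgeR adjusted p = 0.41). With the library number as a block, which leaves 1 residual degree of freedom, it was called at -1.02 (edgeR adjusted p = 1.5e-15). Gbx2 (chr1:89927956-89931179, minus strand) stood at 34.4, 26.2, 14.2 and 29.4 CPM against 23.6 and 16.2 CPM (0.40), with overlap. Otx2 and Gbx2 were seldom counted in the same cell: of all thinned neural cells 1, 2, 0 and 0 held a UMI of each in Tet-TKO and 1 and 3 in WT host, where the product of the separate shares gives 5.27, 13.0, 3.76 and 2.96 and 17.6 and 23.1 cells. Within midbrain and boundary-like cells these numbers were 1, 1, 0 and 0 in Tet-TKO and 1 and 3 in WT host. The products there were 3.75, 6.26, 1.79 and 0.778 and 4.53 and 10.7 cells. The part of sparse counts and of the separate regions of the genes was not tested.

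In hindbrain-like cells (84, 293, 78 and 32 against 118 and 289) none of the 3 members tested was called, where 0.415% of 10118 genes were, and none had an unadjusted p under 0.05, where 10.8% of all genes did. Egr2 (chr10:67535475-67542188, plus strand) had 51.7 to 84.1% of its neural UMIs in these cells. It stood at 58.7, 50.1, 39.3 and 41.9 CPM in Tet-TKO and 28.9 and 44.4 CPM in WT host, with overlap (0.34). Over all neural cells Egr2 was higher in each Tet-TKO library, at 13.8, 15.2, 11.6 and 11.6 against 7.35 and 9.35 CPM, without passing the test (0.66, edgeR adjusted p = 0.18). Gbx2 stood at 25.4, 21.5, 13.9 and 15.1 CPM against 33.3 and 17.4 CPM in hindbrain-like cells (-0.37), and its effect there minus that in midbrain and boundary-like cells was -0.69 (edgeR interaction test, adjusted p = 0.70).

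The other 4 caudal factors did not differ beyond their spread over all neural cells. En1 stood at 68.4 to 75.9 CPM against 52.3 and 92.3 CPM (0.04), En2 at 11.6 to 20.2 CPM against 2.89 and 15.9 CPM (0.68), Pax2 at 18.9 to 24.6 CPM against 25.3 and 21.4 CPM (-0.12) and Gbx2 at 13.5 to 25.04 CPM against 20.3 and 12.6 CPM (0.28). En2 in WT host library 1 was the lowest of all libraries, and the signs of all 4 changed when a library was left out.

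Of the cells of the neural class with crest markers (Foxd3, Ets1 and Tfap2b; 59, 132, 29 and 10 against 99 and 171 cells), 7 members were tested and none was called, where 0.48% of 8744 genes were. En1, En2 and Six3 had an unadjusted p under 0.05, as did 9.26% of all genes. Six3 passed the filter on low counts through 3 Tet-TKO and 0 WT host libraries. En1 was higher in each Tet-TKO library, at 109, 151, 124 and 145 CPM against 47.0 and 94.5 CPM (0.88, edgeR adjusted p = 0.16). En2 was too, at 19.8, 30.8, 49.8 and 84.8 CPM against 2.61 and 19.3 CPM (1.85, edgeR adjusted p = 0.23). Without WT host library 1 these values were 0.49 for En1 and 1.16 for En2, and without WT host library 2 they were 1.47 and 3.98. The 7 hindbrain markers summed to 183, 223, 148 and 31.4 CPM in these Tet-TKO cells and to 248 and 273 CPM in WT host, and the 8 forebrain markers to 11.2 to 26.7 CPM and to 37.2 and 39.9 CPM, both without overlap. The midbrain and boundary markers overlapped, at 65.5 to 144.5 against 96.0 and 187.6 CPM. Their part in the En1 and En2 values was not tested. In spinal cord-like cells only Gbx2 passed the filter on low counts, at 9.55 to 18.8 CPM against 15.6 and 34.9 CPM (-0.92, edgeR adjusted p = 0.57), and 0.2% of the 8011 genes were called. Gbx2 had an unadjusted p under 0.05, as did 8.28% of all genes there. The remaining neural cells, of clusters with no regional name and of an epiblast-like cluster, held the anterior factors at up to 11.5 CPM and gave no call, where 0.356% of 10115 and 0.727% of 7424 genes were called. At an unadjusted p under 0.05 were 1 of 5 members (En1, which passed the filter through 3 Tet-TKO and 0 WT host libraries) and 0 of 1, beside 10.3 and 12.5% of all genes. In the epiblast-like cluster only Tet-TKO libraries 1 and 2 had enough cells.

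Other genes of the same programmes were followed in 3 lists. Of the forebrain and midbrain regulators, 10 of 11 were tested over all neural cells, and 1 was called lower and 0 higher, with a median log2 fold change of -0.36, where 0.436% of all genes tested were called lower and 0.321% higher and the median was 0.01. That gene was Shisa2, an inhibitor of WNT and FGF receptors, at 16.02, 14.5, 13.2 and 14.9 CPM against 44.6 and 34.4 CPM (-1.41, SE 0.17, edgeR adjusted p = 0.0054). The list had 0 calls with like libraries summed and without any 1 library other than Tet-TKO library 1. Of the 11 genes of mid-hindbrain boundary signalling none was called (median -0.19), nor of the 13 of hindbrain segmentation (median 0.44). As group means, the highest genes of the boundary signalling list were the zinc finger gene Sp8 at 49.2 and 44.6 CPM and the ephrin Efna5 at 47.2 and 54.3 CPM. Those of the segmentation list were Meis2, a cofactor of HOX proteins, at 211 and 157 CPM and the homeobox gene Irx3 at 102 and 87.3 CPM. No gene of the lists was called by edgeR in any region of the neural cells. DESeq2 called 1 forebrain and midbrain regulator in hindbrain-like cells. In a separate class of neural crest-like cells outside them, 1 of 8 boundary signalling genes was called, where 0.651% of 8136 genes were. That gene, Il17rd, an antagonist of FGF signalling that was named after its value was seen, stood at 13.7 and 30.6 CPM in Tet-TKO libraries 2 and 3 against 5.43 and 5.76 CPM (2.14, edgeR adjusted p = 0.0073). Sp8, Efna5, Meis2 and Irx3 had edgeR adjusted p of 0.70, 0.58, 0.051 and 0.35 over all neural cells.

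Across all cell groups of E8.5, the forebrain-like cells had the highest mean of Six3, Hesx1, Rax, Lhx2 and Otx2 in both genotypes. For Six3, Rax and Lhx2 every forebrain-like library lay above every library of the next group, while Hesx1 in WT host and Otx2 in Tet-TKO overlapped it. An epiblast-like class outside the neural cells, of 112, 118, 1 and 0 against 31 and 33 cells, had the next highest mean in Tet-TKO for all 5, from libraries 1 and 2 only. It had 131 and 161 CPM of Six3 in Tet-TKO libraries 1 and 2 and 69.5 and 182 CPM in WT host, with 98.2 and 102 against 76.3 and 190 CPM of Hesx1. Its WT host libraries differed so far that the groups overlapped, and none of these was called, where 0.169% of 7100 genes were. Without WT host library 2, Otx2 (1.65, edgeR adjusted p = 1.6e-05) and Six3 (1.11, edgeR adjusted p = 0.00046) were called higher, and without WT host library 1 both had the opposite sign (-0.16 and -0.26). With this class counted as neural, Hesx1 over all neural cells was at -1.61 and lost its call (edgeR adjusted p = 0.081, range over all alternatives 3.0e-33 to 0.082).

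En1, En2 and Pax2 were highest in midbrain and boundary-like cells and Egr2 in hindbrain-like cells, in both genotypes. For En2 the order was not firm, because its libraries overlapped those of the crest-marked neural cells. Gbx2 was highest in the epiblast-like neural cluster, at 34.3 and 64.0 CPM in Tet-TKO libraries 1 and 2 and 49.4 and 80.7 CPM in WT host, and next in presomitic mesoderm-like cells, at 23.3 to 44.5 CPM against 34.5 and 54.1 CPM, with overlap between these neighbours.

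Outside the neural tube, Six3 and Hesx1 were higher in the Tet-TKO libraries in gut-like cells. Six3 stood at 32.3, 19.4, 22.9 and 19.0 CPM against 10.7 and 11.4 CPM (1.19, edgeR adjusted p = 0.049) and Hesx1 at 17.1, 13.3, 31.3 and 20.2 CPM against 8.22 and 8.61 CPM (1.34, edgeR adjusted p = 0.051). No library overlapped, but neither reached an adjusted p of 0.01, where 0.294% of 12240 genes were called higher and 0.507% lower. Under DESeq2 both passed (adjusted p = 0.0065 and 0.0035, range over all alternatives for Hesx1 1.2e-05 to 0.53). In erythroid-like cells Hesx1 was lower, at 0.71, 0.94, 4.52 and 1.30 CPM against 6.75 and 10.4 CPM (-2.31, edgeR adjusted p = 0.036), also without passing, and 0.63% of 9207 genes were called lower there. In surface ectoderm-like cells Pax2 and Gbx2 each had a log2 fold change of -0.96 (edgeR adjusted p = 0.054 and 0.12), neither called, where 0.607% of 13018 genes were. Gbx2 was called higher in 1 class whose leading genes mix germ cell and extraembryonic genes (Dppa3 and Elf5), at 21.7, 20.9 and 27.3 CPM in 3 Tet-TKO libraries against 5.25 and 3.67 CPM (2.27, edgeR adjusted p = 6.6e-04), but 20.6% of the 7543 genes tested there were called. Of the lists, 7 of 9 boundary signalling genes were called higher and 0 lower in the same class, 2 of 3 segmentation genes higher and 1 lower, and 0 of 1 forebrain and midbrain regulator. Without correction between libraries the class was split into 1 cluster with Elf5 and 1 with Dppa3 among its leading genes. The study found no injected cells in the trophoblast compartment (ExE ectoderm), for which Elf5 served as a marker here. Tet-TKO and WT host cells of this class may thus be of different kinds, which was not tested. Its calls are therefore not a comparison of genotypes alone.

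At E7.5 there was 1 library per genotype, so levels are given with 95% exact Poisson intervals that cover counting error only, and no test was made. Clusters at this stage were mostly of 1 library, and the ectoderm clusters kept no name, so their levels describe libraries as much as cells. Over all cells but the extraembryonic-like ones, Otx2 was the highest of the 10 genes, at 42.0 CPM in Tet-TKO and 47.2 CPM in WT host. In epiblast-like cells (499 Tet-TKO and 54 WT host cells) Otx2 stood at 140 CPM (133 to 147) in Tet-TKO and 155 CPM (128 to 185) in WT host, whose intervals overlap. Six3 stood at 21.3 CPM (18.8 to 24.1) there in Tet-TKO and at 2.60 CPM (0.315 to 9.39), from 2 UMIs, in WT host.

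Cluster 2, led by Elavl3, Tubb3 and Pim2, had 824 WT host cells and few Tet-TKO cells, and held Otx2 at 116 CPM (110 to 122), Six3 at 23.3 CPM (20.5 to 26.3) and Hesx1 at 19.9 CPM (17.4 to 22.7). Cluster 17, led by Crabp2, Ptn and Dlx5, had 352 Tet-TKO and 21 WT host cells, and its Tet-TKO cells held Otx2 at 56.3 CPM (51.4 to 61.6), Six3 at 39.6 CPM (35.5 to 44.1) and Hesx1 at 5.17 CPM (3.76 to 6.94). Cluster 22, led by Dlx5, Tfap2a and Cxcl12, had 244 WT host cells, with Otx2 at 73.2 CPM (64.4 to 82.9), Six3 at 46.0 CPM (39.1 to 53.8) and Hesx1 at 12.9 CPM (9.37 to 17.3). The clusters with most of these UMIs thus differed between the libraries, and their values are not a comparison of genotypes.

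Gut-like cells at E7.5 (88 and 267) held Hesx1 at 24.6 CPM (17.8 to 33.3) in Tet-TKO and 60.7 CPM (52.9 to 69.3) in WT host, with intervals apart, and Otx2 at 83.3 CPM (70.1 to 98.1) and 78.9 CPM (70.0 to 88.7). Gbx2 was highest in cluster 11, led by Cdx1 and Nkx1-2, genes of the caudal epiblast, at 90.2 CPM (74.9 to 107.8) in 59 cells of Tet-TKO and 85.2 CPM (77.7 to 93.1) in the larger number of WT host cells.

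**Figure D4:**
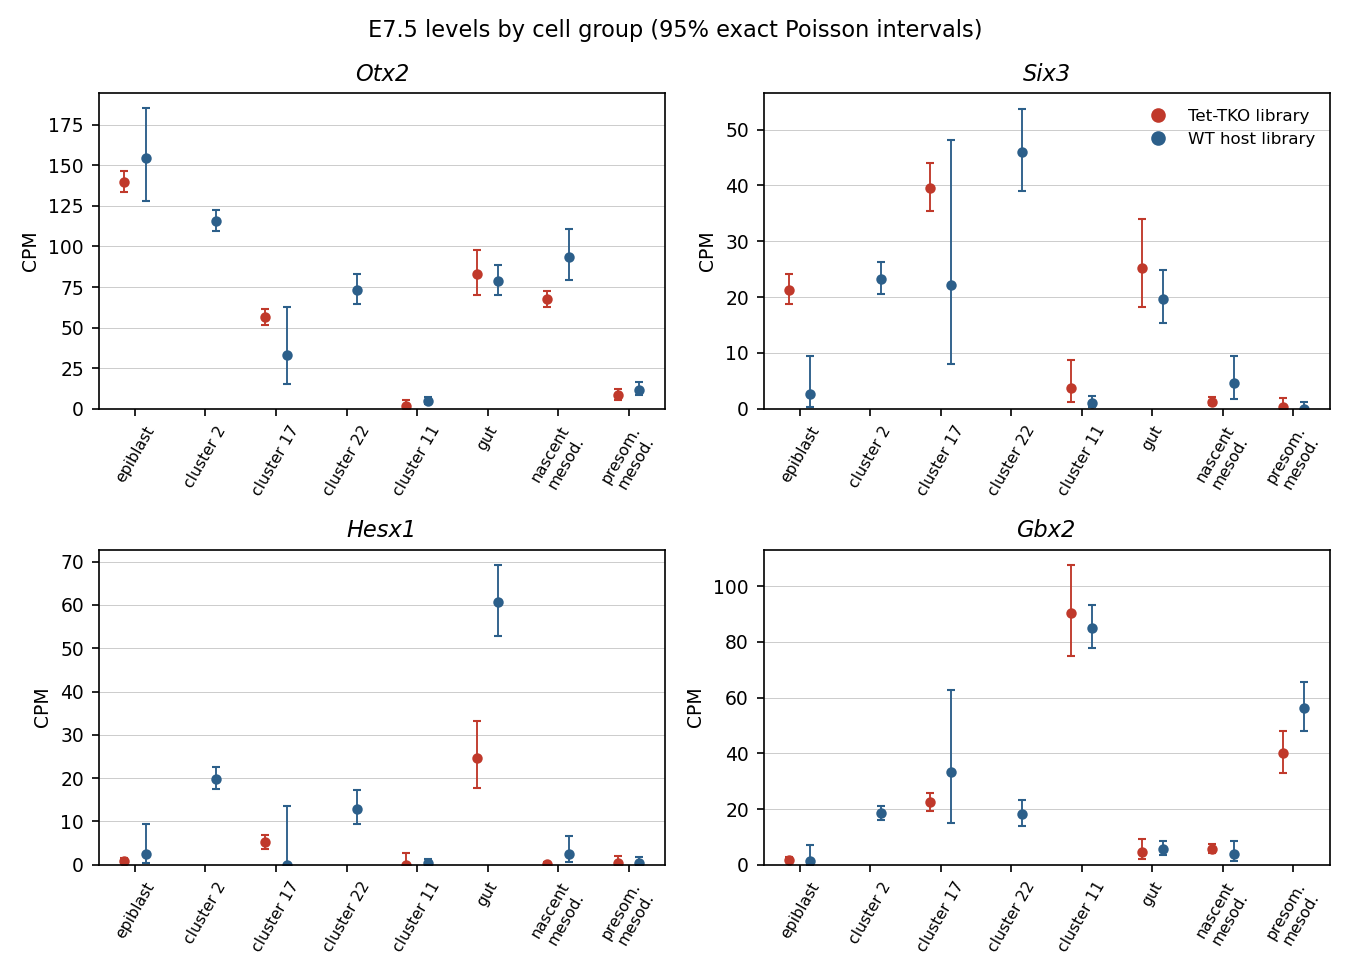
CPM of Otx2, Six3, Hesx1 and Gbx2 in cell groups of the 2 E7.5 libraries (red, Tet-TKO; blue, WT host), with bars for 95% exact Poisson intervals. A group with 1 colour had too few cells of the other library. In gut-like cells Hesx1 is lower in the Tet-TKO library (24.6 against 60.7 CPM), and in cluster 11 Gbx2 is at 90.2 and 85.2 CPM.

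The genes whose levels followed each factor most closely over 183 sums of cell groups and libraries at E8.5 are given by Pearson's r of log2(CPM + 1) across 34 groups, as a description, since sums of 1 library share depth and groups share lineage. Six3 was closest to Six3os1 (0.87), whose gene overlaps it on the other strand, then Hesx1 (0.82) and Otx2 (0.78). Otx2, Rax, Lhx2, En2, Pax2 and Gbx2 also overlap antisense genes. The study's methods give default Cell Ranger settings, which count sense reads, and do not name the strand themselves. Six3os1 stayed among the genes used for clustering. Hesx1 was closest to Six3 (0.82), Rax (0.80) and Fezf1 (0.79), Rax to Six6 (0.81), Hesx1 (0.80) and Fezf1 (0.75), and Lhx2 to Rax (0.69), Six6 (0.64) and C130093G08Rik (0.64). Otx2 was closest to Irs4 (0.81), Six3 (0.78) and Otx1 (0.78).

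En1 and En2 were closest to each other (0.76), En1 then to Pax5 (0.74) and Otx1 (0.66) and En2 to Cnpy1 (0.71) and Klhl14 (0.67). Pax2 was closest to Sp8 (0.72), Nrxn2 (0.70) and St8sia3 (0.68), while Mycl (0.67) and Cdca7 (0.67) were among the 3 genes closest to Gbx2. Egr2 was closest to Egr3 (0.62), Trib2 (0.61) and Gm32255 (0.60). These were chosen among 14122 genes of at least 5 CPM in some group.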

How the data were processed

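Reads had been mapped to mm10 with Cell Ranger by the authors, whose deposited tables hold UMI counts for each gene in each cell barcode, not normalised. Totals per E8.5 library were 65601218 to 136982886 UMIs. Barcodes under 1500 UMIs, over 30% mitochondrial or over 35% ribosomal UMIs were left out. The 2500 most variable genes, without the 10 factors and the list genes, gave 50 principal components, corrected by 20 mutual nearest neighbours and clustered by Leiden at resolution 2 (scanpy 1.11.5), first all cells and then the neural cells. A neural cluster took a regional name from at least 2 markers raised by a log2 fold of 0.5, a mean of 0.2 and a lead of 0.2. These limits were set after the clusters were seen, and rebuilt names may differ from those of the study. Doublets were removed only as an alternative (Scrublet, 0.99 to 7.8% of cells).

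Counts were summed per group and library (at least 10 cells) and tested by edgeR 4.0.16 (R 4.3.3, filterByExpr, TMM, estimateDisp, glmQLFit, glmQLFTest) with Benjamini-Hochberg adjustment. Simulated counts held 200 changed genes, each of at least 10 CPM on average. At log2 2, 99.5% of these were recovered over all neural cells and 96.0% in forebrain-like cells, with 2 and 8 false calls. At log2 1, the fold a call needs, recovery was 38.5% and 39.0%, and 31% in midbrain and boundary-like cells. Recovery and false calls were not counted with like Tet-TKO libraries summed, the setting in which the members' calls were lost. How far the likeness of Tet-TKO libraries within pairs changes these figures was not tested, so they do not show how the test behaves on such pairs. Intervals are exact Poisson (95%). Promoters are RefSeq's (GRCm38.p6). Gene positions are from GENCODE M21.

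Members and lists were chosen with earlier results of these data known. Named genes are all members, list genes called in a neural group (otherwise the 2 of highest mean level in each list) and the 3 genes closest to each member, of which 1 is not reported here. Alternatives were DESeq2 1.42.0, other normalisation, filters, depth, clustering, sort purity and left-out libraries. The edgeR fits without a filter on low counts and with a replicate block gave extremely small p-values. Low ends of the ranges over alternatives are thus not read as support. The E7.5 clusters and other classes were named by the same markers. Sequences of En2 and Rax and all proteins are not used here.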

Additional observations from a re-analysis of the deposited data

Results flagged for a closer look

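For En1, a test of the difference between regions passed its threshold, with the genotype effect in midbrain and boundary-like cells minus that in forebrain-like cells at -3.04 on the log2 scale (edgeR interaction test). En1 entered this test through its Tet-TKO level in forebrain-like cells, so the difference is given as a description. Its values with each library left out are given above. In forebrain-like cells the difference rests on 14, 29, 30 and 1 UMIs of En1 in Tet-TKO libraries 1 to 4 and on 1 and 13 in the WT host libraries. The part of midbrain RNA in these cells was not tested. In groups of 4 libraries, none of 35 values stood apart by Dixon's criterion, where chance gives about 1 in 20.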

How the results depend on the processing

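Of 1132 alternative values for 87 results, 976 stayed the same, 37 lost a call, 20 gained one, 26 changed sign and 73 moved. A fold change stayed the same if it kept its direction and its side of the threshold. A count of calls did so if 0 stayed 0 or the count changed little, and a share if it moved by less than the spread of both groups. The cause of these changes was not tested. The share of all genes called was counted in the main setting only. Counts of calls under the alternatives are thus no result about the members or lists. Under DESeq2 the En1 difference between regions was -3.44 (adjusted p of 1), Otx2 over all neural cells -1.20 (adjusted p = 7.6e-04), and Six3 and Hesx1 in gut-like cells 1.18 and 1.33 (adjusted p = 0.0065 and 0.0035), and 1 forebrain and midbrain regulator was called in hindbrain-like cells. At an adjusted p of 0.05 with no minimum fold, 1 boundary signalling gene and 2 hindbrain segmentation genes were called over all neural cells, 1 hindbrain segmentation gene in the epiblast-like neural cluster, 1 forebrain and midbrain regulator in hindbrain-like cells and 1 boundary signalling gene in neural crest-like cells, and the edgeR calls then included Hesx1 in erythroid-like cells (-2.31) and Six3 in gut-like cells (1.19). A minimum of 30 cells gave 2 members called in forebrain-like cells, with En1 at 3.63. Cells with matching tdTomato gave 0, with Rax at -1.06 (edgeR adjusted p = 0.012). With like libraries summed, 0 members and 0 forebrain and midbrain regulators were called over all neural cells (Six3 -1.54, Hesx1 -2.06, Rax -2.34, Lhx2 -1.68), and 0 members in forebrain-like cells (Rax -1.025). Adding the epiblast-like class to the neural cells, an alternative chosen after seeing the data, gave -1.61 for Hesx1 and -0.027 for En1.

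Clustering with the members gave -1.59 for Hesx1 and -0.033 for En1 over all neural cells. Resolution 1 gave 2 members called over all neural cells and 0 in forebrain-like cells (Rax -0.90). Over all neural cells Hesx1 (-1.64) and Rax (-2.23) lost their calls, and En1 was at -0.029. Without correction between libraries Otx2 was called (-1.02), Hesx1 was not (-1.65), and En1 was at -0.070 over all neural cells and at -0.23 in midbrain and boundary-like cells, with Pax2 at -0.062. Forebrain-like and neural crest-like cells then had 2 or fewer cells in each Tet-TKO library, so those values could not be given. Cells thinned to 5000 UMIs gave -0.11 for En1 and 0.10 for Pax2 over all neural cells and -0.15 for En1 in midbrain and boundary-like cells. Without a filter on low counts, the 3 lists had 2, 1 and 3 calls over all neural cells and Otx2 was called (-1.20), forebrain-like cells had 2 members and 2 boundary signalling genes called (En1 3.101), hindbrain-like cells 1 forebrain and midbrain regulator and 2 segmentation genes, midbrain and boundary-like cells 2 boundary signalling genes, neural crest-like cells 1 member (En2 1.81) and 1 gene of each of 2 lists, and the other neural cells 1 segmentation gene. Hesx1 was called in erythroid-like (-2.34) and gut-like cells (1.31), as was Six3 in gut-like cells (1.17).

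The difference in the share of neural cells with a UMI, in percentage points, moved with depth. Thinned to 10000 UMIs it was -18.3 for Otx2, -15.1 for Six3, -12.2 for Rax, -11.3 for Lhx2 and -2.75 for Pax2. Unthinned it was -17.98 for Otx2, -11.6 for Rax, -4.601 for Lhx2, 5.72 for En2, 6.12 for Pax2, 16.4 for Gbx2 and 8.83 for Egr2. With at least 3000 UMIs per cell it was -18.1, -11.8, -4.48, 5.85, 6.23, 16.7 and 9.04 for the same genes.

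The replicate block pairs libraries 1 and 2 only, since 3 and 4 have no WT host partner, and leaves 1 residual degree of freedom. The labels do not say whether libraries of the same number came from the same embryos, and with 2 WT host libraries, whose deviations from their mean mirror each other, correlations cannot show it. The share of all genes called under the block was not counted, so the counts that follow are no result about the members or lists. Under the block, the 3 lists had 4, 3 and 3 calls over all neural cells, with Otx2 at -1.60 and Pax2 at 0.10. Forebrain-like cells had 3 members (Lhx2 -1.14, En1 3.87), 1 boundary signalling and 1 segmentation gene called. Hindbrain-like cells had 1 forebrain and midbrain regulator and 2 segmentation genes, with Gbx2 at 0.089. Midbrain and boundary-like cells had 1 member (Otx2 -1.02), 4 boundary signalling and 1 segmentation gene, and the other neural cells 1 segmentation gene.

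Leaving out each library in turn gave, over all neural cells, 0 to 4 members and 0 to 1 forebrain and midbrain regulator called, with Six3 at -1.67 to -1.46, Hesx1 at -2.45 to -1.53, Rax at -2.53 to -2.17, Lhx2 at -1.83 to -1.49, En1 at -0.29 to 0.48, En2 at -0.035 to 2.38, Pax2 at -0.26 to 0.030 and Gbx2 at -0.056 to 0.68. Forebrain-like cells had 0 to 2 members and 0 to 1 segmentation gene called, with Rax at -1.11 to -0.94 and En1 at 2.52 to 5.34. In hindbrain-like cells 0 to 1 forebrain and midbrain regulator was called and Gbx2 lay at -0.84 to 0.14. En1 lay at -0.14 to 0.34 in midbrain and boundary-like cells. In the epiblast-like class Otx2 lay at -0.16 to 1.65, Six3 at -0.26 to 1.11 and Hesx1 at -0.84 to 0.45. The differences between regions lay at -0.26 to 0.27 for Six3, -4.97 to -2.60 for En1 and -0.066 to 0.35 for Pax2. A lone WT host library was assumed to vary like the Tet-TKO libraries.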

Other observations

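Egr2 was also counted outside the neural cells, at 1.74, 0.92, 5.05 and 5.86 CPM in Tet-TKO libraries 1 to 4 and at 1.38 and 0.94 CPM in the WT host libraries. Egr3, its relative, stood there at 1.75, 0.99, 5.40 and 5.40 CPM against 0.89 and 0.44 CPM, and the immediate early gene Egr1 at 68.5, 48.4, 84.4 and 89.2 CPM against 41.4 and 27.4 CPM. The deeper Tet-TKO libraries 3 and 4 were the highest for all 3 genes. Fos had another order, at 145, 73.4, 95.7 and 91.9 CPM against 94.2 and 39.3 CPM. Ier2 and Jun were counted too. Ier2 stood at 206.9, 168.0, 218.2 and 212.7 CPM against 151.5 and 120.0 CPM. Jun stood at 239.9, 181.4, 225.4 and 196.0 CPM against 216.0 and 132.8 CPM, with overlap and its highest value in Tet-TKO library 1. Egr1, Egr3 and Fos were chosen after their values were seen.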
